A study of Rattus norvegicus with 16 samples.

Results

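Glutathione, antioxidant and redox enzymes were followed in the rat pontine nuclei, brainstem nuclei whose neurons send axons to the cerebellum, after the projecting axons had been injured at a distance. A member was any probe set whose platform annotation named 1 gene of the glutathione S-transferase (Gst, Mgst), glutathione peroxidase (Gpx), superoxide dismutase (Sod), peroxiredoxin (Prdx) or thioredoxin-related (Txn) families, or Cat, Gclc, Gclm, Gss, Gsr, Nqo1, Hmox1 or Hmox2. This gave 73 of 8799 probe sets, standing for 41 of 4358 genes with a single symbol. The arrays were 1-colour short-oligonucleotide arrays with biotin-labelled RNA, read as MAS5 signal. Each of 16 arrays was 1 condition. The 9 lesion-side arrays came from the pontine nuclei on the injured side at days 4, 10 and 37 after axonal transection, after lysolecithin (a membrane-dissolving phospholipid used to demyelinate axons) or after saline, with 1 array for each day and treatment. The 7 control arrays were the contralateral pontine nuclei at days 10 and 37 of each of the 3 interventions, and 1 healthy control. No contralateral array stood for day 4, and the contralateral nuclei came from animals that had themselves been injured. Strain, age, sex, and how many animals each array stood for are not given in the sources used here. Days therefore took the place of replicates, and p-values measured the spread between arrays of different conditions. The samples are whole tissue, in which fewer cells of a type and less RNA per cell cannot be told apart.

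Aerobic neurons produce superoxide as a by-product of respiration. Superoxide dismutases turn it into hydrogen peroxide, which catalase, the glutathione peroxidases and the peroxiredoxins then remove. Glutathione and thioredoxin supply the electrons for the glutathione peroxidases and the peroxiredoxins, and are themselves recycled with NADPH. Glutathione S-transferases couple glutathione to electrophiles and lipid breakdown products. Many of these genes are induced by the transcription factor NRF2, which binds the antioxidant response element. In brain, glutathione is made mainly by astrocytes, which feed its precursors to neurons.

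No redox probe set differed past a limma adjusted p of 0.05 in any of 10 comparisons between interventions, days or sides. The values below describe how level, or how variable, each enzyme was. A probe set was tested when it had been called Present, the array software's detection call, on at least 3 of 16 arrays. This left 50 of the 73 probe sets and 32 of the 41 genes, among 4413 probe sets tested in all. The most strongly detected families were tested in full or nearly so, with all 7 Prdx probe sets (4 genes), all 3 Mgst probe sets (3 genes) and 18 of 23 Gst probe sets (10 of 12 genes). Of the other families, 4 of 7 Gpx, 7 of 10 Txn and 3 of 6 Sod probe sets were tested. Of the redox probe sets, 44 were Present on all 16 arrays and 20 on none. The tested members had a median SD of log2 signal over the arrays of 0.214, against 0.252 over all tested probe sets. These were not matched for signal level or detection, so the gap is not read as a trait of redox genes.

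Some central genes of the pathway gave no usable signal. Gclc, the catalytic subunit of the rate-limiting enzyme of glutathione synthesis, was Absent on all 16 arrays at a signal of 29.5 to 196. Hmox1, the stress-inducible haem oxygenase, was Present on no array with either of its 2 probe sets, even 4 days after transection. Gpx2, Gpx7, Gsta3, Gstt1, Sod3 (the extracellular superoxide dismutase) and Txnl4b were likewise Present on no array. Gss, which completes glutathione synthesis, was Present on 2 arrays with 1 of its probe sets and on none with the other. A missing Present call says that these probes did not stand above their mismatch controls, and sets no upper bound on the transcript. Txn1, thioredoxin itself, was not among the members.

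The short promoter of a gene shows whether the letters of an NRF2 site lie near its start. RefSeq promoters (build GRCr8, 250 bases before to 50 bases after the start) were matched for 33 of the 41 member genes, and Gsr, Gstt1, Gstt2, Hmox1, Mgst2, Prdx6, Sod3 and Txnip had no match. The core of the antioxidant response element, TGACNNNGC on either strand, was found in 12 of the 33 (36.4%), against 3602 of 27457 genes in the whole table (13.1%). These 12 were Gclm, Gpx2, Gsta1, Gsta3, Gstm5, Gstm7, Gstp1, Hmox2, Prdx1, Sod2, Txnl4b and Txnrd1. The core can overlap the AP-1 site TGACTCA, and it did so in 2 of the 12, Prdx1 and Gstp1. A match of letters is a description and shows no binding. The promoters of Prdx1 and Gsta1 are shown because these 2 genes had the largest positive differences among the 4 members of smallest p between transection and controls, that of Gclm because it encodes the regulatory subunit of the enzyme that limits glutathione synthesis, and that of Gstm5 because it holds 2 matches. Capitals mark the matched core, and each runs 5′ to 3′ on the gene's strand. Prdx1 lies at chr5:135383656-135383955, plus strand, with its match 135 bases before the start. Gsta1 lies at chr9:31216483-31216782, minus strand, with its match 30 bases after the start. Gclm lies at chr2:213031885-213032184, plus strand, with its match 172 bases before the start. Gstm5 lies at chr2:198219519-198219818, plus strand, with matches 113 and 53 bases before the start.
Prdx1: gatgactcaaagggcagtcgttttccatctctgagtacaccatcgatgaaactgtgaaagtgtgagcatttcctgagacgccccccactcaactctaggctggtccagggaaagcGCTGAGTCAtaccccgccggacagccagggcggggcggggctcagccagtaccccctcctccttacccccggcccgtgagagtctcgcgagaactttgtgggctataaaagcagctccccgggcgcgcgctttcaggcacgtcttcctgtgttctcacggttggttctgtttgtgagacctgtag
Gsta1: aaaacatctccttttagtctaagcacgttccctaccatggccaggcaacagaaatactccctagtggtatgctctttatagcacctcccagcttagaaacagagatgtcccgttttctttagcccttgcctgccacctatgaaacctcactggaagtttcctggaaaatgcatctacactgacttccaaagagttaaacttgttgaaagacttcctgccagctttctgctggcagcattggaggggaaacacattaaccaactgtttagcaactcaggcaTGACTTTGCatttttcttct
Gclm: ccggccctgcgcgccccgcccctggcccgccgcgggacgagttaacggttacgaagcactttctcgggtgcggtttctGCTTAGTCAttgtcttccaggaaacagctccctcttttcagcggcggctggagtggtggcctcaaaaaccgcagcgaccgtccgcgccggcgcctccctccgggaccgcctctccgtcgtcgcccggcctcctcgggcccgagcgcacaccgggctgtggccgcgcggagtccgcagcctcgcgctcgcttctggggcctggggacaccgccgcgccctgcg
Gstm5: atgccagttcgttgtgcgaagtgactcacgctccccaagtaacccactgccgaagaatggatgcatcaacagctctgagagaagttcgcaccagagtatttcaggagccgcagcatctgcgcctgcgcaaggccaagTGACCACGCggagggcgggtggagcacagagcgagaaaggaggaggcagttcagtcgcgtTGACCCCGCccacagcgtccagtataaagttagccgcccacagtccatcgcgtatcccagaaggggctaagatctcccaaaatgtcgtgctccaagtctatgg

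Signals are given below on the linear MAS5 scale, lesion-side values at days 4, 10 and 37 in that order and control values as the lowest, median and highest of 7. They are not per length, so levels of different genes are not compared. The superoxide dismutases come first. For Sod1, the cytosolic copper-zinc enzyme, the brighter probe set M21060_s_at read 9285, 7284 and 7073 with transection, 7669, 7303 and 6895 with lysolecithin and 8619, 6979 and 7959 with saline, against 6544, 7233 and 8256 on the controls. The transection array at day 4 had the highest value of all 16 and the saline array at day 4 the next, both above every control, and the later lesion-side arrays lay within the range of the controls. The second Sod1 probe set, Y00404_s_at, read 3493, 5958 and 4822 with transection, 3089, 4275 and 5226 with lysolecithin and 3601, 3786 and 4691 with saline, against 3569, 5229 and 7489 on the controls. Day 4 was the lowest day in each of the 3 interventions, whereas on the brighter probe set it was the highest. Sod2, the mitochondrial manganese enzyme, read 1159, 1109.7 and 912 with transection, 1150.2, 1137 and 1370.1 with lysolecithin and 999, 1075 and 1176 with saline, against 872, 1058 and 1462 on the controls, and every group overlapped with the controls.

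Catalase (Cat), which breaks down hydrogen peroxide in peroxisomes, read, with the probe set M11670_at, 582, 412 and 431 with transection, 608, 570.0 and 529 with lysolecithin and 502, 499 and 568 with saline, against 331, 430.0 and 501 on the controls. All 3 lysolecithin arrays lay above the highest control on this probe set, and the transection arrays overlapped with the controls. Its brighter probe set, rc_AA926149_g_at, read 1714, 2157 and 1727 with transection, 1268, 1727 and 1196 with lysolecithin and 2241, 1518 and 1893 with saline, against 906, 1358 and 1781 on the controls. There the lysolecithin arrays lay inside the range of the controls, so that the 2 Cat probe sets did not show the same order.

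The glutathione peroxidases use glutathione to reduce peroxides. Gpx1, the cytosolic form, read, with the probe set X07365_s_at, 3583, 2541 and 2865 with transection, 3343, 2768 and 2712 with lysolecithin and 4601, 2925 and 3283 with saline, against 2578, 2930.0 and 4026 on the controls. Within each intervention the day 4 array was the highest, and the saline array of day 4 exceeded all controls. The brighter Gpx1 probe set, X12367cds_s_at, read 5880.2, 4179 and 4548 with transection, 6621, 5281 and 5038 with lysolecithin and 5196, 3868 and 5862 with saline, against 3738, 4497 and 5619.7 on the controls. Here day 4 was again the highest after transection and lysolecithin, whereas after saline day 37 was. Gpx4, which reduces lipid hydroperoxides within membranes, read 7071, 4589 and 5934 with transection, 7714, 5990.3 and 7349 with lysolecithin and 7942, 6761 and 8207 with saline, against 5621, 6707 and 7780.1 on the controls. In all 3 interventions the day 10 array was the lowest, and at each day transection lay below lysolecithin and lysolecithin below saline. Gpx3, the secreted plasma form, read 626, 895 and 783 with transection, 872, 686 and 940.4 with lysolecithin and 477, 586 and 637 with saline, against 626, 863 and 1004 on the controls. The 3 saline arrays were low, below all 3 lysolecithin arrays but reaching into the lower end of the controls. The transection array of day 4 was called Marginal.

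The peroxiredoxins reduce peroxides through reactive cysteines. Prdx1, a cytosolic form induced by oxidants, read 4194, 3098 and 2957 with transection, 2804, 2755 and 2592 with lysolecithin and 3508, 3119 and 2688 with saline, against 2043, 2478 and 2889.7 on the controls. All 3 transection arrays lay above the highest control and above all 3 lysolecithin arrays, while the saline arrays overlapped with transection. Prdx2, the other abundant cytosolic form, read 7283, 6063 and 5897 with transection, 5785, 5951 and 6139 with lysolecithin and 7530.2, 6902 and 6913 with saline, against 5695, 6460.2 and 7055 on the controls. Transection at day 4 and saline at day 4 were the highest of the 16, and neither group was separate from the controls. Prdx3, the mitochondrial form, read, with the probe set rc_AA799650_g_at, 1813, 2852 and 2804 with transection, 2353, 2549 and 2089 with lysolecithin and 1756, 3179.8 and 2730.4 with saline, against 1764, 2339 and 2779.7 on the controls. Transection and saline had their lowest value at day 4, and lysolecithin at day 37. Prdx6, which also reduces phospholipid hydroperoxides, read, with its brightest probe set rc_AA892041_at, 5763, 5264 and 5133 with transection, 4389, 4239.9 and 4392 with lysolecithin and 5187, 4685 and 4779 with saline, against 4042, 4864 and 5049.6 on the controls. The transection arrays were all above the controls here, and the lysolecithin arrays were below all transection and saline arrays. A dimmer Prdx6 probe set, AF014009_at, read 925, 904 and 1192 with transection, 935, 829 and 1166 with lysolecithin and 649, 849 and 990.4 with saline, against 810.1, 875 and 1015 on the controls. On it day 37 was the highest day in every intervention, which the brightest probe set did not show after transection or saline.

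Glutathione synthesis and recycling rested on Gclm and Gsr, the only genes of this step that were tested. Gclm, which raises the efficiency of the catalytic subunit, read, with the probe set rc_AI233261_i_at, 396, 266 and 332 with transection, 200.2, 257 and 183 with lysolecithin and 551, 329.8 and 247 with saline, against 171, 252 and 329 on the controls. The highest values were saline and transection at day 4, and all 3 transection arrays lay above all 3 lysolecithin arrays. The other tested probe set, S65555_g_at, read 403, 205 and 228 with transection, 233, 165 and 175 with lysolecithin and 275, 313 and 204 with saline, against 197, 246 and 357 on the controls. Transection at day 4 was again high there, and all 3 lesion groups overlapped with the controls. The saline array of day 37 was called Absent there. Gsr, which regenerates reduced glutathione, was Present on only 6 arrays and ranged between 159 and 303, with the highest value on the healthy control.

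Glutathione S-transferases of the alpha, mu, pi, omega and theta classes were nearly all detected, but probe sets of this family can match close paralogs, so the values may mix family members. Gsta1, an alpha-class enzyme active on lipid peroxidation products, read, with the family probe set S72505_f_at, 3215, 2198 and 2406 with transection, 2366, 2279 and 2791 with lysolecithin and 2057, 2144 and 1911 with saline, against 1159, 1673 and 2912 on the controls. The transection array of day 4 was the highest of the 16, all saline arrays were below all transection and lysolecithin arrays, and the contralateral array of transection at day 37 was the second highest. A second Gsta1 probe set, X78848cds_f_at, read 1986, 1836 and 1857 with transection, 2072, 1708 and 2490.4 with lysolecithin and 1439, 1335 and 1726 with saline, against 1415, 1609 and 2100.4 on the controls, and saline was the lowest of the 3 interventions at every day. The other Gsta1 probe set, K01932_f_at, read 2522, 2268 and 2318 with transection, 1762, 2199 and 2403 with lysolecithin and 2216, 2068 and 1989 with saline. Its controls read 1540.0, 1845 and 2713, and on it saline overlapped with lysolecithin. Gsta4, which conjugates the lipid aldehyde 4-hydroxynonenal, read 739, 532 and 597 with transection, 726, 582 and 628 with lysolecithin and 599, 643 and 685 with saline, against 516, 599.8 and 651 on the controls. The day 4 arrays after transection and lysolecithin stood above all controls, and the later arrays of these interventions did not, while saline at day 37 did.

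In the mu class, Gstm1 read, with X04229cds_s_at, 2987, 3009 and 2926 with transection, 3637, 3794 and 4287 with lysolecithin and 2794, 3556 and 4125 with saline, against 2626, 3042 and 3665 on the controls. The lysolecithin arrays were all above the transection arrays. Its brighter probe set, J02810mRNA_s_at, read 3317, 3778 and 3479 with transection, 3268, 3163 and 3725 with lysolecithin and 3331, 3367 and 3525 with saline, against 2946, 3243 and 4532 on the controls, with the healthy control as the highest array. Gstm2 read 200.0, 249 and 220.4 with transection, 303, 323 and 223 with lysolecithin and 239, 259.5 and 291 with saline, against 272, 342 and 413 on the controls, and the transection array of day 4 was called Absent. All 3 transection arrays were below the lowest control. Gstm5 and Gstm7 were Present on all 16 arrays, with signals of 1657 to 2524 for the Gstm5 probe set U86635_at and 2836 to 4109.8 for Gstm7.

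For Gstp1, the pi-class enzyme, the brighter probe set rc_AI012589_s_at read 5466, 6018 and 6839.6 with transection. It read 5889.6, 6267 and 7739 with lysolecithin and 6198, 6239 and 6943 with saline, against 5632, 6470.3 and 7374 on the controls. Each intervention had its lowest value at day 4 and its highest at day 37 on this probe set. Only lysolecithin at day 37 lay above the controls there, and only transection at day 4 below them. The other probe set, X02904cds_s_at, read 2116.5 to 2575.6 with transection, 1938.2 to 2741.0 with lysolecithin and 2219.8 to 2347.7 with saline. Its controls read 1990.4 to 2492.5, so that no transection array was below them. Day 37 was again the highest day, but saline was lowest at day 10, with a log2 difference of -0.021 from day 4. Gsto1, an omega-class enzyme with thioltransferase activity, read, with AB008807_at, 2653, 2007 and 2373 with transection, 2790.1, 2578 and 2872 with lysolecithin and 2866, 2868 and 3365 with saline, against 1499, 2477 and 3219.8 on the controls, and the transection arrays were all below the saline arrays. On the brighter Gsto1 probe set, AB008807_g_at, the values were 4731, 3920.2 and 4989 with transection, 4726, 4206 and 5403 with lysolecithin and 5142, 4579.9 and 4997 with saline, against 3562, 4142 and 5324 on the controls, and transection and saline overlapped. Gstt2, a theta-class enzyme, read, with rc_AI138143_at, 1386, 884 and 884 with transection, 988, 831 and 871 with lysolecithin and 1423, 1476 and 921 with saline, against 528, 799 and 1297 on the controls, where the saline arrays of days 4 and 10 were the highest of the 16. Its other probe set, D10026_s_at, read 415, 453 and 353 with transection, 343, 329.6 and 313 with lysolecithin and 312, 356 and 293 with saline, against 295, 353 and 497 on the controls, and the saline arrays were not among the highest there. Gstk1 was Present on 12 arrays.

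The microsomal transferases are membrane proteins with peroxidase activity. Mgst1 read 3095, 2885 and 2981 with transection, 2933, 2800.0 and 3979 with lysolecithin and 2367, 2527 and 3102 with saline, against 2206, 2819 and 3262 on the controls, and the lysolecithin array of day 37 was the highest of the 16. Mgst2 read 811, 949.7 and 661 with transection, 656, 795 and 799 with lysolecithin and 609.6, 790.4 and 766 with saline, against 806, 906 and 1005 on the controls, so that the saline arrays, and the lysolecithin arrays, were all below the lowest control. Mgst3 read 5226, 5333 and 5767 with transection, 6296, 5326 and 6578 with lysolecithin and 7787, 5576 and 7062 with saline, against 5669.8, 6148 and 7139 on the controls. Its transection arrays of days 4 and 10 lay below the lowest control and overlapped with other injured arrays, and saline at day 4 was the highest array.

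In the thioredoxin system, Txnip, which binds and inhibits thioredoxin, read, with rc_AI237654_at, 499, 481 and 549 with transection, 538, 557 and 626 with lysolecithin and 412, 375 and 353 with saline, against 378, 452 and 496 on the controls. All saline arrays were below all transection and all lysolecithin arrays, and all lysolecithin arrays were above the highest control. The brighter Txnip probe set, rc_AI014169_at, read 1226, 1113 and 1162 with transection, 1501, 1099 and 1205 with lysolecithin and 1145, 1035 and 1064 with saline, against 920.0, 1049 and 1237 on the controls. On it saline overlapped with both other interventions, and lysolecithin overlapped with the controls. Txnl1, a thioredoxin-like protein of the proteasome, read 1875, 1402 and 1464 with transection, 1132, 1323 and 1054 with lysolecithin and 1919.8, 1579 and 1434 with saline, against 1042, 1316 and 1558 on the controls. Lysolecithin was below both of the other interventions on every array. Txnrd1, the reductase that recycles cytosolic thioredoxin with NADPH, read, with its brighter probe set rc_AA891286_at, 2547, 2517 and 2242 with transection, 2248, 2631 and 2288 with lysolecithin and 2693, 2843 and 2129 with saline, against 536, 2498 and 2788 on the controls. The lowest control is the healthy array, and the other 6 controls read 2079 to 2788. The dimmer Txnrd1 probe set, U63923_at, read 499, 498 and 555 with transection, 539, 464 and 521 with lysolecithin and 355, 473 and 494 with saline, against 429, 519 and 537 on the controls, with the saline array of day 4 the lowest of the 16. Txn2, the mitochondrial thioredoxin, read 3843, 4958 and 5075 with transection, 4551, 3219 and 4886 with lysolecithin and 3913, 5060.4 and 4213 with saline, against 4146, 4494 and 6768 on the controls, and here the healthy array was the highest of the 16, with 4146 to 4883 on the other 6 controls. Txnrd2, the mitochondrial reductase, was Present on 4 arrays.

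Nqo1, a quinone reductase and a standard NRF2 target, read 794, 642 and 543 with transection, 964, 608 and 999 with lysolecithin and 866, 619 and 819 with saline, against 457, 739.9 and 983 on the controls. The transection arrays lay inside the range of the controls, and lysolecithin at day 37 was the highest of the 16. For Hmox2, the constitutive haem oxygenase, the brighter probe set U05013_at read 968, 962 and 1196 with transection. It read 1149, 1097 and 1151 with lysolecithin and 1101, 1236 and 1219 with saline. Its controls read 1014, 1216 and 1381, and the transection arrays of days 4 and 10 were the lowest of the 16. On the other probe set, J05405mRNA_s_at, a saline array was the lowest (543.8), against 573.6 for the lowest transection array. Every lesion group overlapped with the controls there.

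**Figure D1:**
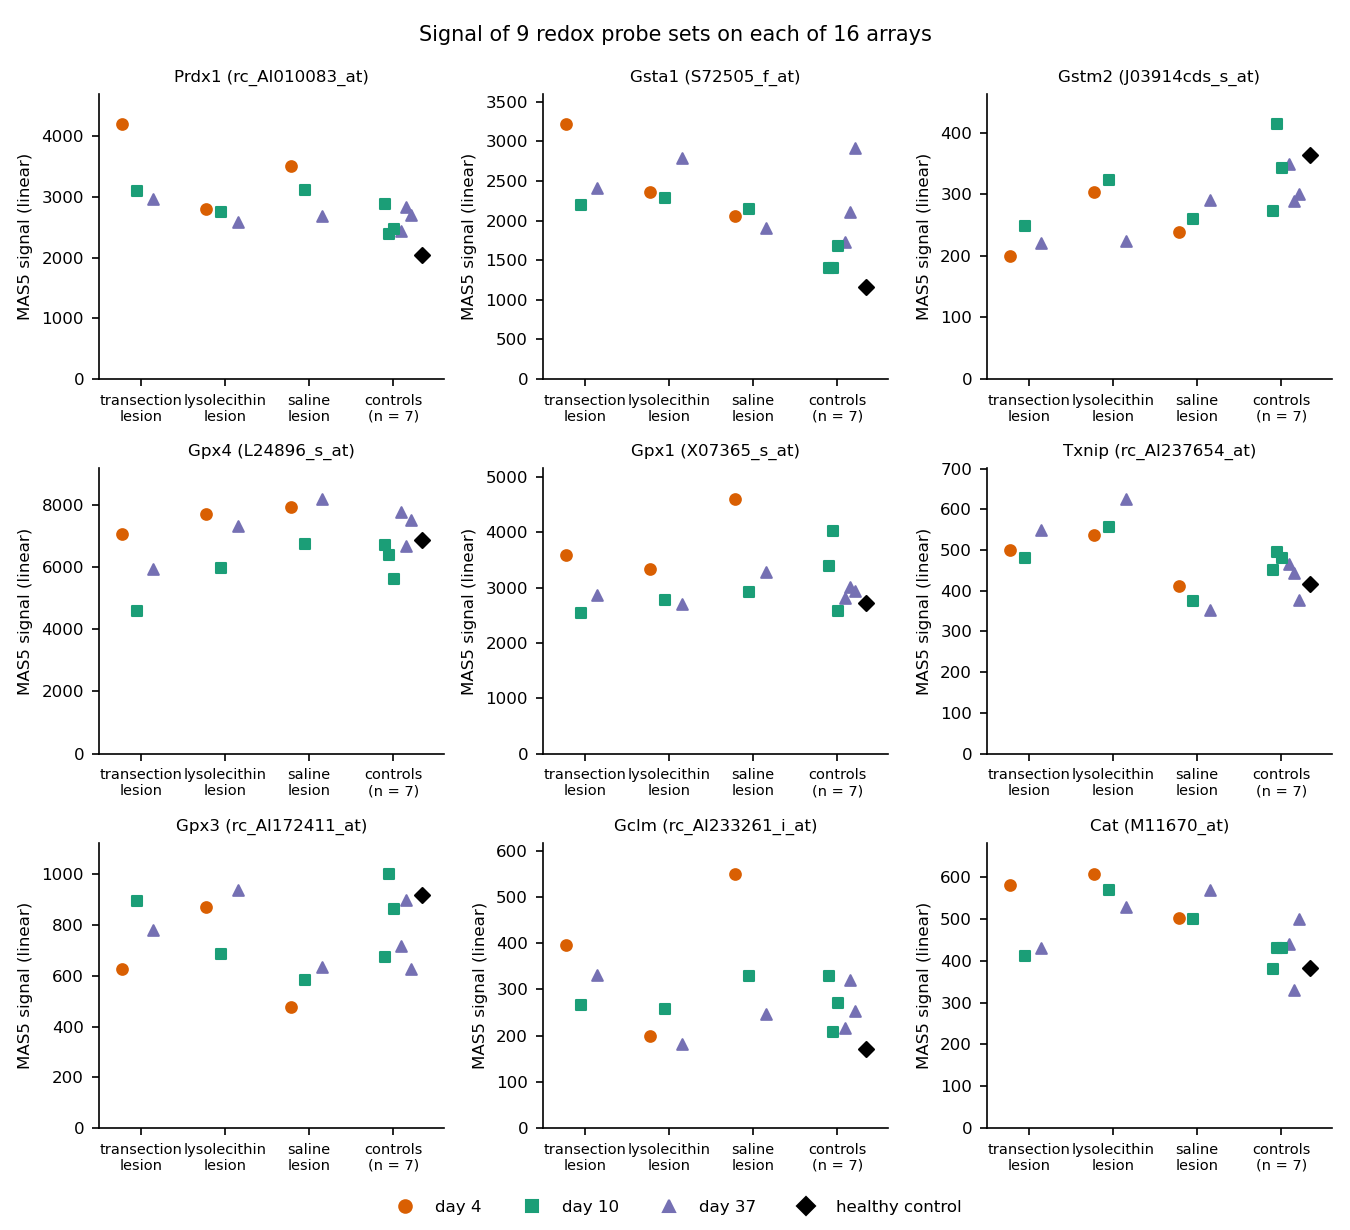
MAS5 signal (linear scale from 0) of 9 redox probe sets, with 1 point for each array, grouped by transection, lysolecithin and saline lesion sides and the 7 controls; colour and shape give the day, and diamonds the healthy control. All 3 transection points of Prdx1 (2957 to 4194) lie above the controls (2043 to 2890), those of Gstm2 lie below them, and Txnip (rc_AI237654_at) after saline lies below both other lesion groups.

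Transection, the cutting of the axons, was set against the 7 controls to ask which genes of the cell bodies differ after axons are severed. The same 7 control arrays served for all 3 interventions. None of 50 redox probe sets passed, against 0.0227% of all tested (1 of 4413). At an unadjusted p under 0.05 there were 6 redox probe sets, 5 higher and 1 lower, which is 12% of them, against 11.0% of all tested. That count was 2 without the transection array of day 4 and 3 without the contralateral array of transection at day 10. The log2 difference of Gstm2 was -0.54 (SE 0.150, adjusted p = 0.198), with a 95% interval of -0.85 to -0.22. Prdx1 gave 0.42 (SE 0.131, adjusted p = 0.254), or 1.34-fold, with an interval of 0.14 to 0.69. Gsta1 (S72505_f_at) gave 0.60 (SE 0.209, adjusted p = 0.300), or 1.51-fold, and Prdx6 (rc_AA892041_at) gave 0.22 (SE 0.0933, adjusted p = 0.399). Over the 50 probe sets the median log2 difference was 0.058, with 29 positive, against -0.0051 over all tested. The extremes were -0.54 and 0.60, and 2 members lay outside the middle 95% of all probe sets.

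Lysolecithin, the model of demyelination, was set against the same controls. Not one of the 50 redox probe sets passed, and none of 4413 (0%) did by limma, the only tool run. Without adjustment, p was under 0.05 for 6, all higher, which is 12%, against 4.65% of all tested. Without the lysolecithin array of day 37 it was 2. Catalase (M11670_at) gave a log2 difference of 0.45 (SE 0.135, adjusted p = 0.972), or 1.37-fold, and the 95% interval ran from 0.17 to 0.74. Txnip (rc_AI237654_at) gave 0.35 (SE 0.111, adjusted p = 0.972), against 0.26 (SE 0.116, adjusted p = 0.972) on its brighter probe set. Gstm1 (X04229cds_s_at) gave 0.34 (SE 0.123, adjusted p = 0.972) and Gsta1 (S72505_f_at) gave 0.54 (SE 0.209, adjusted p = 0.972). The other Cat probe set lay inside the range of the controls, so the Cat value rests on 1 of 2 probe sets. The median over members was 0.0455, with 31 positive, against 0.0058 over all tested, and 4 members lay outside the middle 95%.

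Saline, the injection without demyelinating agent, was the vehicle for lysolecithin and also an injury of its own. Of the 50 redox probe sets none passed, and none of 4413 (0%) did. The unadjusted p was under 0.05 for 8, 6 higher and 2 lower, which is 16%, against 12.4% of all tested. This count was 4 without the healthy control, 3 without the saline array of day 4, 4 without that of day 10, 5 without the contralateral saline array of day 37 and 4 without the contralateral lysolecithin array of day 10. Gpx3 gave a log2 difference of -0.50 (SE 0.163, adjusted p = 0.341), with an interval of -0.85 to -0.16. Mgst2 gave -0.32 (SE 0.128, adjusted p = 0.378) and Cat (M11670_at) gave 0.33 (SE 0.135, adjusted p = 0.379). Gstt2 gave 0.60 (SE 0.237, adjusted p = 0.378) with rc_AI138143_at and, with the opposite sign, -0.19 (SE 0.139, adjusted p = 0.538) with D10026_s_at. The median over members was 0.0825, with 30 positive, against 0.0031 over all tested. Most markers of astrocytes, of microglia and macrophages, and of meninges and fibroblasts had negative differences here as well. The medians of the oligodendrocyte, neuron, endothelium and blood markers were between -0.005 and 0.074. Pmp22, the 1 tested Schwann cell marker, gave -0.264. The 8 astrocyte markers summed to 66114 to 69878 on saline arrays and 62191 to 75861 on the controls, with a median of -0.137 and 2 of 8 positive. The 8 microglia and macrophage markers summed to 2960.1 to 4031 on saline arrays and 2750.0 to 10845 on the controls, with a median difference of -0.386 and 1 of 8 positive. The 6 meningeal and fibroblast markers summed to 2310.3 to 2952 and 2509 to 6565, with a median of -0.349 and 1 of 6 positive. Kl, the 1 tested choroid plexus marker, read 102 to 133 on saline arrays and 131 to 269.8 on the controls, a difference of -0.569. All these ranges overlapped, and no marker passed. The part of these cells in the Gpx3, Mgst2 and Gstt2 values was not tested.

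**Figure D2:**
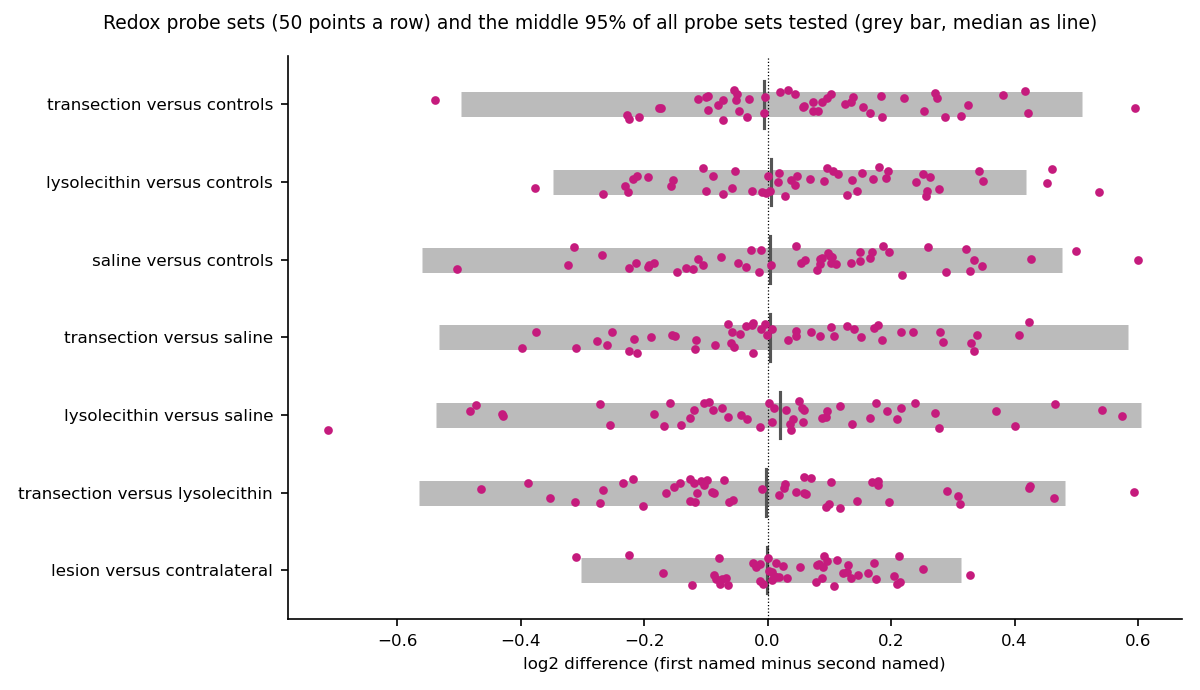
Log2 differences (first named minus second named) of the 50 tested redox probe sets, as points spread vertically for legibility, in 7 comparisons; grey bars span the middle 95% of all 4413 tested probe sets and the short line is their median. The redox points stay largely inside the bars, with 0 to 4 of 50 outside in each row.

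Transection was also set against saline, day by day, on the lesion side. None of 50 redox probe sets passed, against 0.725% of all tested (32 of 4413). Unadjusted, a p under 0.05 was reached by 8, 5 higher and 3 lower, which is 16%, against 16.9% of all tested. It was 5 without the transection array of day 4, 5 without that of day 10 and 4 without the saline array of day 4. Gpx4 gave a log2 difference of -0.40 (SE 0.106, adjusted p = 0.108), with a 95% interval of -0.63 to -0.16, lower after transection at all 3 days. Gsto1 (AB008807_at) gave -0.37 (SE 0.122, adjusted p = 0.167) and Mgst3 gave -0.31 (SE 0.114, adjusted p = 0.207). Txnip gave 0.41 (SE 0.142, adjusted p = 0.187) with rc_AI237654_at, and 0.11 (SE 0.126, adjusted p = 0.686) with the brighter rc_AI014169_at, on which the groups overlapped. The median over members was -0.0075, with 23 positive, against 0.0041 over all tested. The 3′ to 5′ signal ratio of the actin control probes is higher where RNA or labelling is less complete. It was 1.07 to 1.43 on transection arrays and 1.41 to 1.68 on saline arrays. The same ratio of the GAPDH control probes did not show this, at 1.07 to 1.19 and 1.09 to 1.16. Gpx4 read 7071 to 8207 on the 5 arrays of highest actin ratio (1.43 to 1.68). It read 4589 to 6894 on the 5 of lowest actin ratio (1.04 to 1.16). The part of the actin ratio in the Gpx4 difference was not tested. The 8 microglia and macrophage markers summed to 4954 to 5478 on transection arrays and 2960.1 to 4031 on saline arrays, all 8 with a positive difference and a median of 0.370. The 8 astrocyte markers summed to 69008 to 77923 and 66114 to 69878, with 5 of 8 positive and a median of 0.284, and these ranges overlapped. The median was -0.133 for 6 neuron, -0.135 for 3 blood and 0.180 for 6 meningeal and fibroblast markers. It was 0.023 for 7 oligodendrocyte and 0.091 for 2 endothelium markers, and Kl gave 0.395 and Pmp22 0.220. The part of these cells in the redox differences was not tested.

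Lysolecithin against saline sets the demyelinating agent against its vehicle. Not one of the 50 redox probe sets passed, against 0.159% of all tested (7 of 4413). At an unadjusted p under 0.05 there were 10, 4 higher and 6 lower, which is 20%, against 20.6% of all tested. The number was 5 without the lysolecithin array of day 4 and 6 without the saline array of day 4. Txnip (rc_AI237654_at) gave the smallest p, with a log2 difference of 0.57 (SE 0.142, adjusted p = 0.104), or 1.49-fold, and a 95% interval of 0.26 to 0.88. The brighter Txnip probe set gave 0.22 (SE 0.126, adjusted p = 0.344), so the value rests on 1 of 2 probe sets. Gsta1 (X78848cds_f_at) gave 0.47 (SE 0.132, adjusted p = 0.113), Txnl1 gave -0.48 (SE 0.142, adjusted p = 0.116) and Gpx3 gave 0.54 (SE 0.166, adjusted p = 0.120). The other Gsta1 probe sets gave, at days 4, 10 and 37, -0.328, 0.088 and 0.271 (K01932_f_at) and 0.2, 0.088 and 0.543 (S72505_f_at). The median over members was 0.0331, with 29 positive, against 0.0205 over all tested. Marker genes of other cells also had different levels in these groups. The 8 astrocyte markers summed to 73243 to 74938 on lysolecithin arrays and 66114 to 69878 on saline arrays, with a median of 0.203 and 6 of 8 positive. The median was 0.371 for 3 blood markers, all positive, and Kl gave 0.629 and Pmp22 0.285. It was -0.049 for 7 oligodendrocyte, -0.188 for 6 neuron and -0.207 for 2 endothelium markers. The summed signal of 8 tested microglia and macrophage markers was 4560 to 8180.3 on lysolecithin arrays and 2960.1 to 4031 on saline arrays, and all 8 had a positive difference, with a median of 0.502. The 6 meningeal and fibroblast markers summed to 2638 to 6985 on lysolecithin arrays and 2310.3 to 2952 on saline arrays, with a median difference of 0.713 and 5 of 6 positive, and these ranges overlapped. Itgam, a defining microglia marker, was Present on no array, and Ptprc on at most 4 with any of its 3 probe sets. The part of these cells in the Txnip and Gpx3 values was not tested.

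Transection against lysolecithin sets axon cutting against demyelination. Of the 50 redox probe sets none passed, against 0.476% of all tested (21 of 4413). Without adjustment, p was under 0.05 for 8, 5 higher and 3 lower, which is 16%, against 13.6% of all tested. Leaving out the transection array of day 37 gave 3, and leaving out the lysolecithin array of day 4 gave 4. Gstm1 (X04229cds_s_at) gave a log2 difference of -0.39 (SE 0.127, adjusted p = 0.222), and Prdx6 (rc_AA892041_at) gave 0.31 (SE 0.101, adjusted p = 0.222). Txnl1 gave 0.42 (SE 0.142, adjusted p = 0.224), and Gclm (rc_AI233261_i_at) gave 0.59 (SE 0.228, adjusted p = 0.292), or 1.51-fold, with a 95% interval of 0.10 to 1.09. The groups did not overlap on these 4 probe sets, which were chosen by small p. Some other members, such as Prdx1, did not overlap either, and the share over all probe sets was not counted. Other probe sets of Gstm1 and Prdx6 differed from these values at days 4, 10 and 37. For Gstm1 they gave 0.021, 0.255 and -0.098 with the brighter J02810mRNA_s_at, and -0.478, 0.036 and -0.953 with H32189_s_at. For Prdx6 they gave -0.015, 0.124 and 0.031 with AF014009_at, and 0.023, -0.059 and -0.234 with Y17295cds_s_at. The Prdx6 value thus rests on 1 of 3 probe sets. The median over members was -0.0325, with 24 positive, against -0.0019 over all tested. Among cell markers the median was -0.489 for 6 meningeal and fibroblast, -0.450 for 3 blood and -0.111 for 6 neuron markers. It was 0.297 for 2 endothelium, 0.118 for 7 oligodendrocyte, 0.061 for 8 astrocyte and -0.023 for 8 microglia and macrophage markers. Kl gave -0.233 and Pmp22 -0.065. The part of these cells in the redox values was not tested.

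The 3 days were then compared across the lesion-side arrays of the 3 interventions, each day with 3 arrays. Day 10 against day 4 gave none of 50, against 0.0453% of all tested (2 of 4413). The unadjusted p was under 0.05 for 8, 3 higher and 5 lower, which is 16%, against 13.2% of all tested. Gpx1 (X07365_s_at) gave a log2 difference of -0.47 (SE 0.116, adjusted p = 0.161) and its other probe set, X12367cds_s_at, gave -0.41 (SE 0.135, adjusted p = 0.266). Gpx4 gave -0.41 (SE 0.106, adjusted p = 0.172), and all 3 of these were lower at day 10 in every intervention. Prdx3 (rc_AA799650_g_at) gave 0.54 (SE 0.162, adjusted p = 0.253), higher at day 10 in every intervention. Its other probe set, rc_AA799650_at, gave smaller differences, 0.224 after transection, 0.008 after lysolecithin and 0.118 after saline. The signal of Nqo1 given above was also lower at day 10 than at day 4 in all 3 interventions, but it was not among the 4 of smallest p. Over the members the median was -0.0441, with 23 positive, against 0.001 over all tested.

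Day 37 against day 10 gave none of 50, and 0% of all tested. Unadjusted, a p under 0.05 was reached by 6, all higher, which is 12%, against 7.84% of all tested. Only 1 was left without the lysolecithin array of day 10 or that of day 37, and 3 without the saline array of day 37 or the transection array of day 10. Gpx4 gave 0.31 (SE 0.106, adjusted p = 0.489) and Prdx6 (AF014009_at) gave 0.37 (SE 0.139, adjusted p = 0.579). Gsto1 (AB008807_g_at) gave 0.28 (SE 0.106, adjusted p = 0.579) and Gsta1 (X78848cds_f_at) gave 0.31 (SE 0.132, adjusted p = 0.609). The brightest Prdx6 probe set, rc_AA892041_at, gave -0.036 after transection, 0.051 after lysolecithin and 0.029 after saline. In the same order Y17295cds_s_at gave 0.190, 0.364 and 0.134. The other Gsta1 probe sets gave 0.031, 0.127 and -0.056 (K01932_f_at) and 0.129, 0.290 and -0.165 (S72505_f_at). Of the 50 members 38 had a positive difference, 76%, against 52.8% of all tested, and the median was 0.0931, against 0.012.

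Day 37 against day 4 gave none of 50, against 0.0227% of all tested (1 of 4413). At an unadjusted p under 0.05 there were 10, 6 higher and 4 lower, which is 20%, against 16.4% of all tested. Sod1 (Y00404_s_at) gave 0.53 (SE 0.145, adjusted p = 0.149), or 1.45-fold, with a 95% interval of 0.22 to 0.85. The brighter Sod1 probe set, M21060_s_at, gave -0.392 after transection, -0.153 after lysolecithin and -0.115 after saline. Gpx1 (X07365_s_at) gave -0.37 (SE 0.116, adjusted p = 0.182) and Prdx6 (AF014009_at) gave 0.42 (SE 0.139, adjusted p = 0.187). Gstp1 (rc_AI012589_s_at) gave 0.29 (SE 0.0996, adjusted p = 0.191). In the same order of interventions, the other Gpx1 probe set, X12367cds_s_at, gave -0.370, -0.393 and 0.173. The other Prdx6 probe sets gave -0.167, 0.001 and -0.118 (rc_AA892041_at, the brightest) and -0.013, 0.244 and 0.482 (Y17295cds_s_at). The other Gstp1 probe set, X02904cds_s_at, gave 0.281, 0.497 and 0.059. Over the members the median was 0.0451, with 29 positive, against 0.0135 over all tested. The actin 3′ to 5′ ratio was 1.43 to 1.68 on the 3 arrays of day 4, 1.08 to 1.41 on those of day 10 and 1.07 to 1.43 on those of day 37. The GAPDH ratio was 1.05 to 1.16 at day 4, 1.09 to 1.19 at day 10 and 1.03 to 1.16 at day 37. Gpx1 (X07365_s_at) read 2930.0 to 4601 on the 5 arrays of highest actin ratio and 2541 to 3012 on the 5 of lowest actin ratio. The part of the actin ratio in the day differences was not tested.

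**Figure D3:**
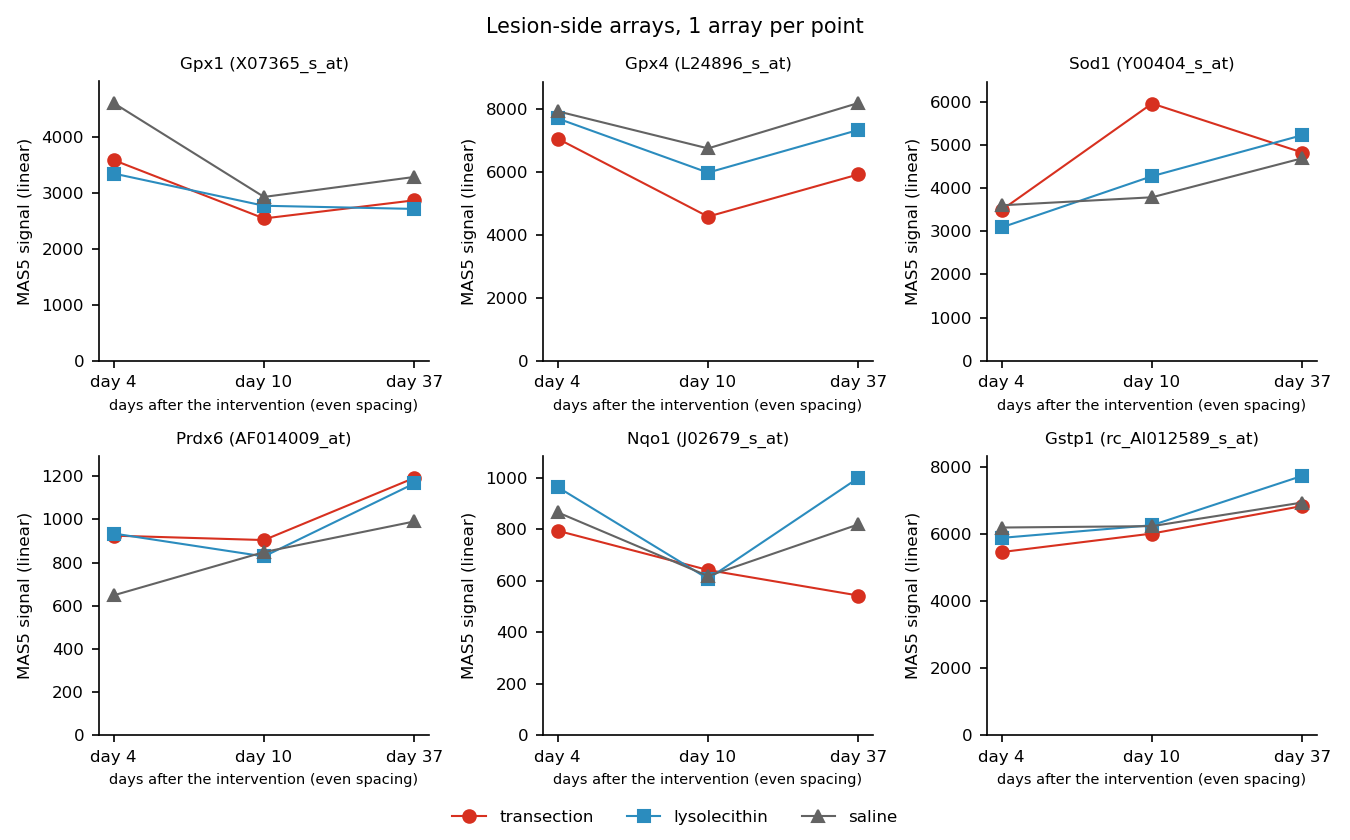
MAS5 signal (linear scale from 0) of 6 redox probe sets at days 4, 10 and 37 on the lesion side, days evenly spaced, with 1 point for each array and a line for each intervention. Gpx4 is lowest at day 10 in all 3 interventions, Gstp1 is highest at day 37, and Nqo1 at day 37 is 543 after transection and 999 after lysolecithin.

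The injured side was compared with the contralateral side within each of the 6 pairs of the same day and intervention. No paired value was possible for day 4 because it had no contralateral array. None of 50 redox probe sets passed, and none of 4413 (0%) did. Without adjustment, p was under 0.05 for 2, 1 higher and 1 lower, which is 4%, against 4.96% of all tested. There were 6 without the lysolecithin array of day 37 of either side, and 5 without the transection array of day 37 of either side. Gstm2 gave a log2 difference of -0.31 (SE 0.109, adjusted p = 0.916), being lower on the injured side in 6 of 6 pairs. The differences at days 10 and 37 were -0.436 and -0.420 after transection, -0.341 and -0.349 after lysolecithin, and -0.064 and -0.252 after saline. Gsta1 (S72505_f_at) gave 0.33 (SE 0.120, adjusted p = 0.916), higher in 5 of 6 pairs, with day 37 after transection the exception. Gstm1 (X04229cds_s_at) gave 0.21 (SE 0.101, adjusted p = 0.945), and Cat (M11670_at) gave 0.25 (SE 0.124, adjusted p = 0.945). Of the 50 members 34 had a positive difference, 68%, against 49.5% of all tested, and the median was 0.0276, against -0.0012. The share was not the same in each pair. After transection 32 of 50 were higher on the injured side at day 10 and 20 at day 37. After lysolecithin 22 were higher at day 10 and 35 at day 37, and after saline 30 were higher at each day. Whether the side difference itself differed between interventions was also tested, over the 6 pairs, after the data had been seen. None of the 50 members passed, with smallest limma adjusted p values of 0.998 for transection against saline, 0.9997 for lysolecithin against saline and 0.855 for transection against lysolecithin.

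Probe sets of 1 gene did not always run together. Among 15 genes with at least 2 tested probe sets, the sign of the difference was the same in 9 of 10 comparisons for Gstm5 and Gsto1 and in 8 of 10 for Gclm, Gstp1 and Txnip. It was the same in only 3 of 10 for Gstm1 and in 4 of 10 for Gstt2, Prdx6, Sod1 and Txnrd1. A value given above for 1 probe set of such a gene stands for that probe set alone. The largest gap for Sod1 was 0.753 on the log2 scale, at day 37 against day 4. Sod1 Y00404_s_at read 3089 to 4691 on the 5 arrays of highest actin ratio and 3891 to 7489 on the 5 of lowest ratio, while M21060_s_at read 7669 to 9285 and 6544 to 7547. The healthy control had the lowest actin ratio (1.041) and the highest GAPDH ratio (1.265). The part of the actin ratio in this disagreement was not tested. Txnrd1 on the healthy control read 536 with rc_AA891286_at and 537 with U63923_at, of which the first stood far below the other arrays and the second did not. Without the healthy control, the log2 difference of rc_AA891286_at to the controls was -0.02 after transection, -0.05 after lysolecithin and 0.04 after saline, in place of 0.29, 0.26 and 0.35 with it.

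**Figure D4:**
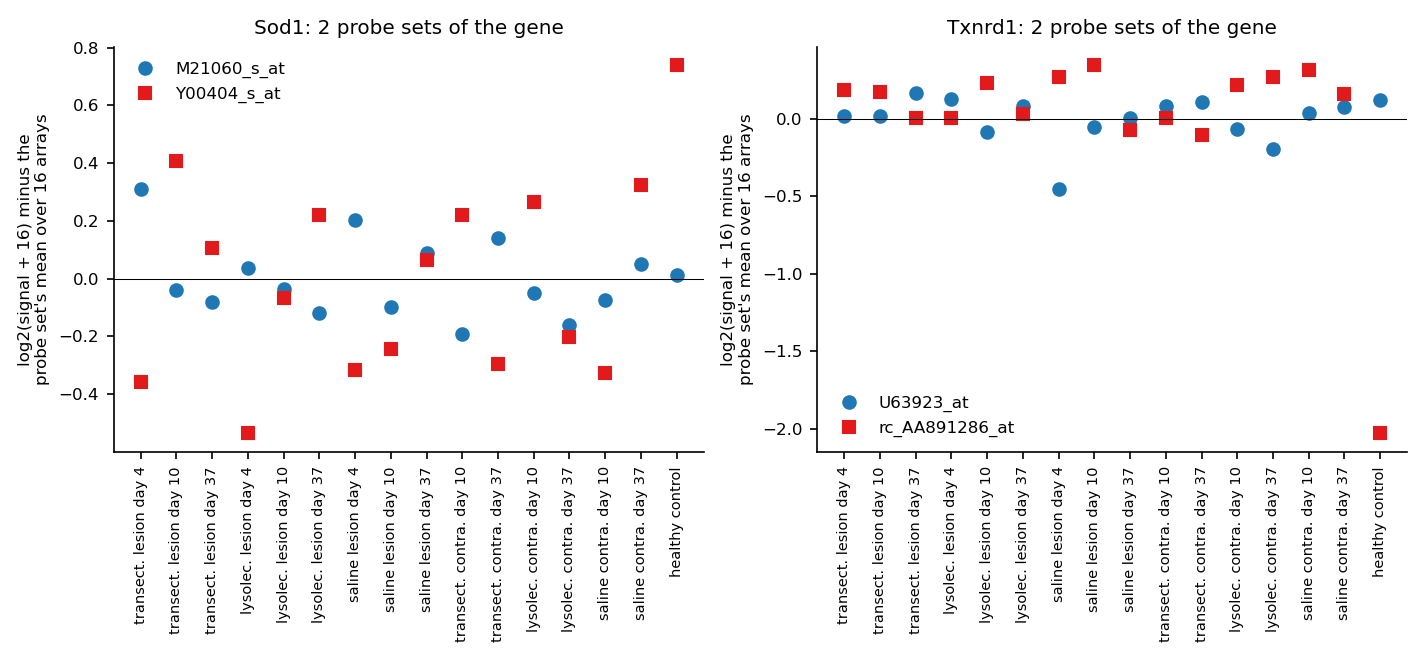
Log2(signal + 16) of both tested probe sets of Sod1 (left) and Txnrd1 (right) on each of 16 arrays, as the difference from the probe set's mean over the arrays. The Sod1 probe sets lie on opposite sides of 0 on the 3 transection arrays, and rc_AA891286_at of Txnrd1 drops on the healthy control alone.

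Further genes of the pathway were read from a list of 91, of which 49 were on the array and 37 were tested. None passed in either direction in any comparison. The list held NRF2 regulators (2 tested), other NRF2 targets (6), NADPH supply (6), glutathione uptake and turnover (7), metal binding (3), other thiol enzymes (8) and oxidant producers (5). Slc1a2, the glial glutamate transporter, came nearest, with a log2 difference of 0.95 after lysolecithin against saline (SE 0.17, limma adjusted p = 0.0525) and -1.03 for saline against the controls (adjusted p = 0.0721). This held for its probe set rc_AI638980_at, while U15098_at gave 0.23 (adjusted p = 0.559) after lysolecithin against saline, and Slc1a2 is also one of the astrocyte markers used here. Slc3a2, which forms the cystine importer that feeds glutathione synthesis, gave 0.43 for transection against saline (adjusted p = 0.114). Slc11a2, a divalent metal transporter, gave -0.65 for lysolecithin against saline (adjusted p = 0.107).

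Every array had the same trimmed mean signal (801), since the depositors had scaled them, and 39.9% to 47.1% of probe sets were Present. The healthy control had the lowest share and the lowest correlation with the other arrays. All 6 neuron and all 7 oligodendrocyte markers were Present on all 16 arrays with at least 1 probe set, as were 6 of 8 astrocyte markers. The other 2, Slc1a2 and Gja1, reached at most 13 and 12 arrays. The summed signals on transection arrays were 35780 to 44825 for 6 neuron markers and 69008 to 77923 for 8 astrocyte markers, against 40603 to 52283 and 62191 to 75861 on the controls.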

How the data were processed

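RNA of the pontine nuclei was hybridised to 1-colour arrays. The deposited intensity values are MAS5 signals, per the submitters' processing notes, with a detection call and a deposited detection p-value per probe set (used through the call). No MAS5 version, probe-level data or scanner batch is given in the sources used here. The deposited series value table, whose values for 7773 probe sets lie in the range of log2 expression with column medians of 8.362 to 8.395, served as an alternative only. How it was normalized is not given in the sources used here.

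Probe sets were named by the platform annotation (6283 with 1 symbol, 280 with several, 2236 with none), and 59 control probe sets were left out. Values became log2(signal + 16) of the deposited intensity. Probe sets Present on at least 3 of 16 arrays (4413) were fitted with limma 3.58.1 in R 4.3.3 (lmFit, eBayes with intensity trend, Benjamini-Hochberg adjustment over all 4413, two-sided). Interventions were set against 7 controls in 1 fit of 4 groups, against each other with day as a term, days with intervention as a term, and sides with the pair of day and intervention as a block. The pairing comes from the labels, which give each contralateral array the day and intervention of its lesion array. The steps were tested on simulated data with changes larger than any redox difference in the main comparisons. That test does not show whether changes of the size seen here would be found. Figures used matplotlib 3.10.9. The fold changes are on the log2(signal + 16) scale, which understates those of dim probe sets, and the number of arrays limits the precision.

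The members and gene lists were chosen with earlier results of these data known. The text gives fold changes for the 4 members of smallest unadjusted p in each comparison, since none passed, and array values for these and for 1 bright probe set of each central enzyme.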

Additional observations from a re-analysis of the deposited data

Results flagged for a closer look

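Of 50 redox probe sets examined over the 7 control arrays, 2 had 1 array far from the rest, by the gap to the nearest array over the whole range (Dixon's test, of which chance flags about 1 in 20). Both concern the healthy control. Txnrd1 (rc_AA891286_at) read 535.9 on it, against 2078.5 to 2788.1 for the other 6 controls, a gap of 0.821 of the range. Txn2 (U73525_at) read 6768.2 on it and 4145.8 to 4882.5 on the other 6, a gap of 0.666. The second Txnrd1 probe set, U63923_at, read 537 there, against 429 to 532 for the other 6. For Txn2 the log2 difference to the controls was -0.05 after transection, -0.19 after lysolecithin and -0.12 after saline, and 0.04, -0.11 and -0.04 without the healthy control, so that it changed sign after transection.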

How the results depend on the processing

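Alternatives were a larger offset of 64, quantile normalization, no detection filter, no intensity trend, the deposited value table, leaving out each array, the contralateral controls alone, dropping the day or intervention term, and for sides no replicate block. Across 174 such repeats the count of redox probe sets past the threshold stayed 0, and all 696 repeated log2 differences of the 4 members of smallest p in each comparison kept their direction and did not pass. Over all members, 12 of 150 differences to the controls changed sign without the healthy control, among them Txnrd1 (given above) and Txn2 after transection, at 0.04 without it and -0.05 with it. Counts at an unadjusted p under 0.05 moved by over 1.5 times in 37 of 174 repeats; they spanned 2 to 10 for transection, 2 to 9 for lysolecithin and 3 to 10 for saline against controls, 4 to 12 for transection and 5 to 17 for lysolecithin against saline, 3 to 9 for transection against lysolecithin, 6 to 9 for day 10 against 4, 1 to 10 for day 37 against 10, 6 to 12 for day 37 against 4 and 1 to 6 for the side. No alternative moved the median of all probe sets by over 0.1.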
